A study of Mus musculus with 8 samples.

Results

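Neurons release a group of secreted or surface proteins whose genes are switched on by electrical activity, and the expression of 9 such genes was followed in the cortex of mice with chronic cerebral hypoperfusion. The genes were taken by symbol, and the set was drawn up with earlier results of these data known. They are the neuronal pentraxins Nptx1 and Nptx2 with their membrane-bound relative Nptxr, the surface ligand Nrn1, the neurotrophin Bdnf with its receptor Ntrk2, the dense-core vesicle proteins Vgf and Scg2, and Inhba, a subunit of activin. All 9 were among the 54752 genes of the count tables, and all 9 were among the 17136 genes with enough reads to be tested. Ntrk2 is a receptor and is not secreted, and it was included as the partner of Bdnf.

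The samples were the right cerebral cortex of 8 wild-type, adult male C57BL/6 mice (C57BL/6 J in the methods), 1 mouse per library, 3 weeks after surgery. The 4 BCAS mice had bilateral carotid artery stenosis, in which a microcoil around each common carotid artery narrows the vessel so that less blood reaches the brain, and the coil on the right side was the narrower one. The 4 sham mice had the surgery without coils. The tissue was sequenced in bulk, so fewer cells of a type and less RNA per cell cannot be told apart. Between 16759364 and 21794435 read pairs were counted on genes in each library. The unit of expression used here is CPM, in which the counts of a library are scaled to a common total. In this unit, 3 counts in the smallest library are worth 0.187 CPM.

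In the cortex, calcium entry through synaptic receptors and voltage-gated channels activates CREB and other transcription factors, which switch on genes such as Bdnf, Nptx2 and Vgf. The pentraxins cluster AMPA-type glutamate receptors at excitatory synapses, and Nrn1, also known as neuritin, promotes the growth of dendritic arbors and the maturation of synapses. BDNF acts through the tyrosine kinase receptor encoded by Ntrk2 (TrkB) on neuronal survival and synaptic strength. Vgf and Scg2 encode granins, which are packed into dense-core vesicles and cut into bioactive peptides, and the subunit encoded by Inhba pairs with itself to form activin A, a ligand of the TGF-beta family.

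The letters that CREB binds were looked for upstream of the genes, because several of these genes are textbook CREB targets. Promoter sequences were taken from a table of RefSeq starts on GRCm38.p6, in which 4 of the 9 genes were matched (Bdnf, Inhba, Ntrk2 and Scg2), with 10 transcript starts between them. In the 250 bases before each start, the complete cAMP response element TGACGTCA was present at 1 of the 10 starts, that of Scg2, 68 bases before it. Of 32851 promoters of the same length, 1.55% held this element on either strand. A stretch of 30 bases around it, at chr1:79440076-79440105 on the minus strand, is shown here with the element in capitals. The annotation of the count tables starts Scg2 94 bases farther upstream, at position 79440120, so that the element lies inside the first exon of that longer form.

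Scg2: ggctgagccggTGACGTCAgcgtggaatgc

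Bdnf had 7 of the 10 starts, each leading to a different first exon. The core letters TGACG, which are also part of the complete element, were found before 1 of these 7, and 17.8% of all promoters held them. They lie on the opposite strand, 35 bases before the start at position 109692436, and appear as CGTCA in the 250 bases at chr2:109692186-109692435 on the plus strand, where they are in capitals.

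Bdnf: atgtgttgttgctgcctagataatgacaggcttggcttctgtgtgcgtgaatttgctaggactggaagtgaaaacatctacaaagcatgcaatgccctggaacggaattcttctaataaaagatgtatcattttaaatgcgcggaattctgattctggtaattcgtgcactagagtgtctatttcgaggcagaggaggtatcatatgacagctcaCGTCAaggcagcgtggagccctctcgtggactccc

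The letters TGANTCA, which AP-1 factors bind, occurred at 1 start of Bdnf, 152 bases before position 109677032, and in 6.75% of all promoters. The letters GCGNGGGCG, which EGR factors bind, were in none of the 10 windows and in 4.70% of all promoters. A TATAAA was found 91 bases before the start of Inhba, and 12.4% of all promoters held one. These matches describe the letters only, since binding was not measured.

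In the BCAS cortex 5 of the genes fell, namely Nptx2, Nrn1, Bdnf, Vgf and Scg2, and none rose. The decreases ranged from 29.9% for Scg2 to 55.8% for Nrn1 in mean CPM, and those of Nptx2 and Nrn1 also passed a log2 fold change of -1. Without BCAS mouse 1 neither of these passed -1, at -0.89 for Nptx2 and -0.92 for Nrn1. The other 4 genes (Nptx1, Nptxr, Ntrk2 and Inhba) did not pass the test. The threshold was an adjusted p of 0.05 in the quasi-likelihood test of edgeR, adjusted over all 17136 tested genes. By the same rule, 12.8% of all tested genes were called lower and 19.2% higher, and 1.28% were called lower with a log2 fold change under -1. The median log2 fold change of the 9 genes was -0.73, with 8 negative values and 1 positive value, whereas the median over all tested genes was -0.01 and 50.5% of them were negative. For 5 of the 9 genes all BCAS mice were below all sham mice (Nptx1, Nptx2, Nrn1, Bdnf and Vgf), and for Ntrk2 they were all above. Among all tested genes, such a separation was seen downwards in 16.3% and upwards in 18.5%.

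**Figure D1:**
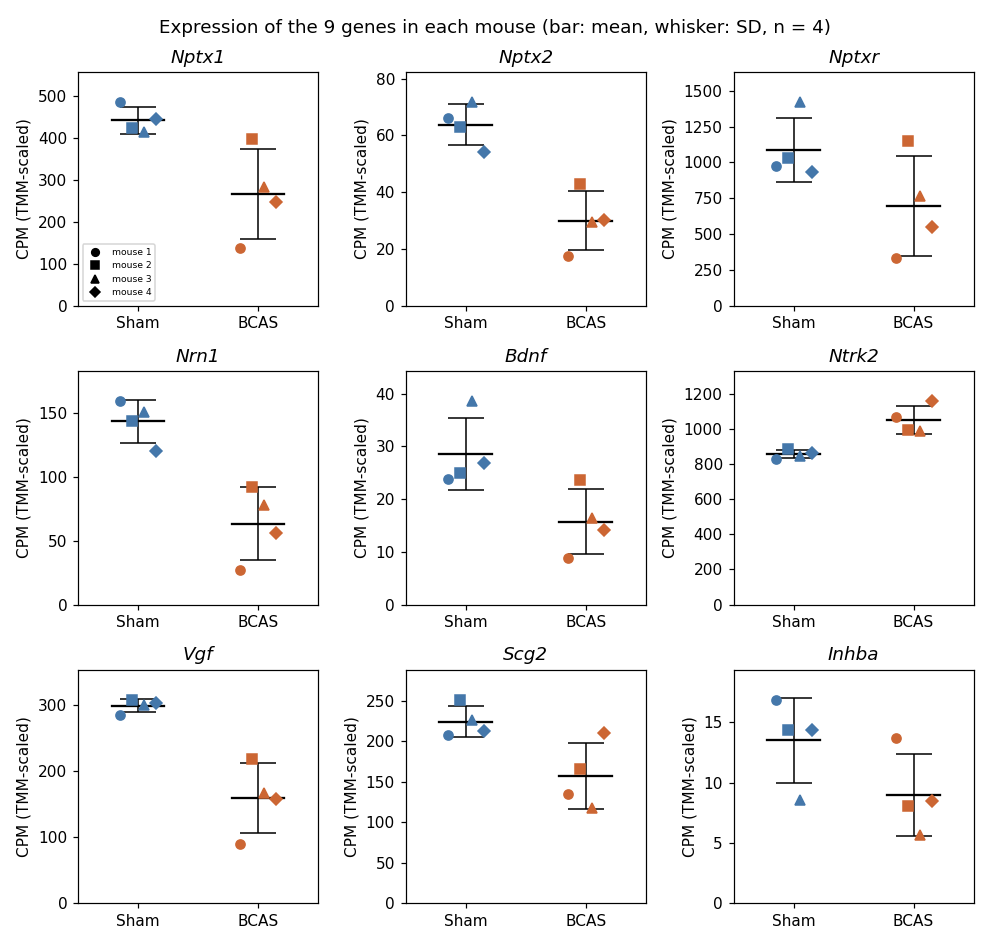
Expression of the 9 genes in each mouse. Each panel shows CPM after TMM scaling on a linear axis from 0, with sham mice in blue, BCAS mice in orange, a bar for the mean and whiskers for the SD (n = 4). The marker shapes give the mouse number, which does not link a sham mouse to a BCAS mouse. The groups are apart in all panels except those of Nptxr, Scg2 and Inhba, and only in that of Ntrk2 are the BCAS mice on the upper side.

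Levels of different genes were compared per length of exon, as RPKM, which divides the CPM by the exon length in kilobases. This length covers all annotated exon bases of a gene, which a single transcript need not carry, so the ranks depend on the annotation. In sham cortex Nptxr had the highest level of the 9, at 211 ± 43.2 RPKM (SD, n = 4). Vgf (101 ± 3.33), Scg2 (89.1 ± 7.73) and Nptx1 (84.5 ± 6.05 RPKM) followed, and the sham mice overlapped between Vgf and Scg2 and between Scg2 and Nptx1. Below them came Nrn1 (63.7 ± 7.44), Ntrk2 (44.4 ± 1.28), Nptx2 (25.1 ± 2.87), Bdnf (4.59 ± 1.09) and Inhba (2.11 ± 0.551 RPKM), and no neighbours among these overlapped between sham mice. In BCAS cortex Nptxr was again at the top and Bdnf and Inhba at the bottom, with means of 135, 2.53 and 1.40 RPKM. Ntrk2, with 54.4 ± 4.16 RPKM, and Vgf, with 53.5 ± 17.9 RPKM, had nearly the same mean there. Ntrk2 has 19292 bases of annotated exon, more than any other of the 9, and a count per gene does not separate its full-length form, found in neurons, from its truncated form, which astrocytes make.

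Of the pentraxins, Nptx2 (also called Narp) is the one most closely tied to neuronal activity. Nptx2 (ENSMUSG00000059991.7, chr5:144545902-144557478, plus strand, mm10) had 66.2, 63.0, 71.6 and 54.2 CPM in sham mice 1 to 4 and 17.5, 42.9, 29.4 and 30.1 CPM in BCAS mice 1 to 4. Every BCAS mouse was below every sham mouse, with mouse 1 farthest down. The mean fell from 63.8 ± 7.27 to 30.0 ± 10.4 CPM (SD, n = 4), to 47.0% of the sham mean. Its log2 fold change was -1.09 (SE 0.23, edgeR adjusted p = 0.0108). Nptx2 was called lower in all 16 other fits, which changed the scaling, the filter, the test or the mice.

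Nptx1, which forms mixed complexes with Nptx2, gave similar but less certain values. Nptx1 (ENSMUSG00000025582.4, chr11:119538719-119547753, minus strand) had 484, 423, 412 and 445 CPM in the sham mice and 136, 397, 283 and 246 CPM in the BCAS mice. The groups did not overlap, although BCAS mouse 2 came within a few percent of the lowest sham mouse. The log2 fold change of -0.73 (SE 0.27) did not pass the test (edgeR adjusted p = 0.0614). It passed in DESeq2 (adjusted p = 0.0237), in limma on log2(CPM + 1) (0.0432), and in edgeR without BCAS mouse 1 (0.0326) or BCAS mouse 2 (0.00604).

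Nptxr encodes the transmembrane pentraxin that anchors the secreted ones. Nptxr (ENSMUSG00000022421.19, chr15:79786351-79804766, minus strand) had 973, 1029, 1419 and 936 CPM in the sham mice and 330, 1146, 763 and 548 CPM in the BCAS mice. BCAS mouse 2 lay inside the sham range and the other BCAS mice lay below it. With a log2 fold change of -0.64 (SE 0.34), the difference was not detectable over this spread (edgeR adjusted p = 0.163). Without BCAS mouse 2 it was -0.98 and passed (edgeR adjusted p = 0.0165). Without BCAS mouse 1 it was -0.40 and did not pass (edgeR adjusted p = 0.250). Npcd, a gene on the same strand, covers 17.2% of the exon bases of Nptxr and had 0 to 8 counts per library. Read pairs on the shared bases fall on both genes, so the level of Nptxr is measured less surely.

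The balance between the pentraxins was compared within each library, where the scaling of the libraries cancels. The Nptx2 to Nptx1 count ratio was 0.137, 0.149, 0.174 and 0.122 in the sham mice. It was 0.128, 0.108, 0.104 and 0.122 in BCAS mice 1 to 4. These groups overlapped, and the log2 ratio differed by -0.32 (exact two-sided permutation test, p = 0.0857, adjusted p = 0.114 over 4 ratios). Without sham mouse 4 the same test reached its smallest possible p. For Nptx2 to Nptxr the log2 difference was -0.38, with the same p and adjusted p in the exact permutation test. A greater loss of Nptx2 than of its partners was thus not shown at 4 mice per group.

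Nrn1 had the most negative fold change of the 9. Nrn1 (ENSMUSG00000039114.16, chr13:36725361-36735131, minus strand) had 159, 143, 151 and 120 CPM in the sham mice and 27.3, 92.3, 77.8 and 55.8 CPM in the BCAS mice. All BCAS mice were below the sham mice, and BCAS mouse 1 was below the other BCAS mice by a wide margin. The mean fell from 143 ± 16.7 to 63.3 ± 28.3 CPM (SD, n = 4), with a log2 fold change of -1.18 (SE 0.31, edgeR adjusted p = 0.0231). Without sham mouse 1, sham mouse 2, sham mouse 3 or BCAS mouse 4 the call was lost, at adjusted p-values of 0.0641, 0.0578, 0.0503 and 0.0623. Fars2, on the opposite strand, covers 22.3% of the exon bases of Nrn1. The counting did not use strand, and Fars2 itself had 237 to 388 counts against 620 to 2799 for Nrn1.

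Bdnf was one of the least abundant members, and its fall passed the threshold narrowly. Bdnf (ENSMUSG00000048482.14, chr2:109674700-109727007, plus strand) had 23.8, 25.0, 38.6 and 26.9 CPM in the sham mice and 8.79, 23.5, 16.4 and 14.1 CPM in the BCAS mice. BCAS mouse 2, at 23.5 CPM, was just under the lowest sham mouse, and sham mouse 3 stood above the other sham mice. The mean fell from 28.6 ± 6.79 to 15.7 ± 6.12 CPM (SD, n = 4), with a log2 fold change of -0.86 (SE 0.28, edgeR adjusted p = 0.0430). Leaving out any mouse except BCAS mouse 2 put the adjusted p above the threshold, at 0.0534 to 0.105, and scaling by library size alone gave 0.0587. An antisense gene, Gm45346, covers 14.4% of the exon bases of Bdnf and had 1 to 6 counts per library.

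For Ntrk2 the BCAS mice were on the other side. Ntrk2 (ENSMUSG00000055254.15, chr13:58806569-59133970, plus strand) had 828, 887, 847 and 861 CPM in the sham mice and 1067, 992, 984 and 1156 CPM in the BCAS mice. The groups did not overlap, and the sham mice lay within a narrow band, with a mean of 856 ± 24.7 CPM (SD, n = 4). The log2 fold change was 0.29 (SE 0.11), which did not pass in edgeR (adjusted p = 0.0577). It passed in DESeq2 (adjusted p = 0.00105), with library size alone (0.0258) and with a minimum of 10 counts in every library (0.0485), and in edgeR without BCAS mouse 1 (0.0361) or BCAS mouse 2 (0.0249). The summed level of 8 astrocyte markers was 4620 to 5328 CPM in the sham mice and 6158 to 9214 CPM in the BCAS mice, and 6 of these 8 genes were called higher. Their part in the values of Ntrk2 was not tested.

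Ligand and receptor therefore had opposite signs in the same libraries. The Bdnf to Ntrk2 count ratio was 0.0287, 0.0282, 0.0455 and 0.0312 in the sham mice. It was 0.00824, 0.0237, 0.0167 and 0.0122 in BCAS mice 1 to 4. Every BCAS mouse was below every sham mouse. The log2 ratio differed by -1.21 (exact two-sided permutation test, p = 0.0286, the smallest that 70 arrangements allow), and the p adjusted over 4 ratios was 0.114. With 4 mice per group, a single ratio at the smallest p cannot pass this correction, whatever the size of its difference.

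Vgf encodes a granin-like precursor whose peptides act on synapses and on energy balance. Vgf (ENSMUSG00000037428.14, chr5:137026392-137033351, plus strand) had 285, 308, 301 and 303 CPM in the sham mice and 90.2, 220, 168 and 159 CPM in the BCAS mice. The sham mice differed little from each other, and all BCAS mice were below them. Its mean fell from 299 ± 9.89 to 159 ± 53.2 CPM (SD, n = 4), with a log2 fold change of -0.91 (SE 0.22, edgeR adjusted p = 0.0182). The call was lost only without sham mouse 2 (adjusted p = 0.0511) among the 16 other fits.

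Scg2, the precursor of the peptide secretoneurin and the gene whose CRE is shown above, had the smallest of the 5 decreases. Scg2 (ENSMUSG00000050711.7, chr1:79434669-79440120, minus strand) had 207, 251, 226 and 212 CPM in the sham mice and 135, 165, 118 and 210 CPM in the BCAS mice. BCAS mouse 4 reached the sham range, and the other BCAS mice were below it. The mean fell from 224 ± 19.5 to 157 ± 40.2 CPM (SD, n = 4), with a log2 fold change of -0.51 (SE 0.17, edgeR adjusted p = 0.0459). The call was lost without any one of the 4 sham mice or without BCAS mouse 1 or 3, at adjusted p-values of 0.0799 to 0.114, and with library size alone (0.0915). Without BCAS mouse 2 or BCAS mouse 4 it was kept, at adjusted p-values of 0.0431 and 0.0163, and the log2 fold change without BCAS mouse 4 was -0.68. That mouse also had the highest sum of striatal markers, whose part in the value of Scg2 was not tested.

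The granins were compared in the same way. The Vgf to Scg2 count ratio was 1.38, 1.23, 1.33 and 1.43 in the sham mice. It was 0.668, 1.33, 1.42 and 0.757 in BCAS mice 1 to 4. BCAS mice 2 and 3 lay within the sham range, whereas mice 1 and 4 had less Vgf than Scg2. On the log2 scale the difference was -0.44 (exact two-sided permutation test, p = 0.257, adjusted p = 0.257).

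**Figure D2:**
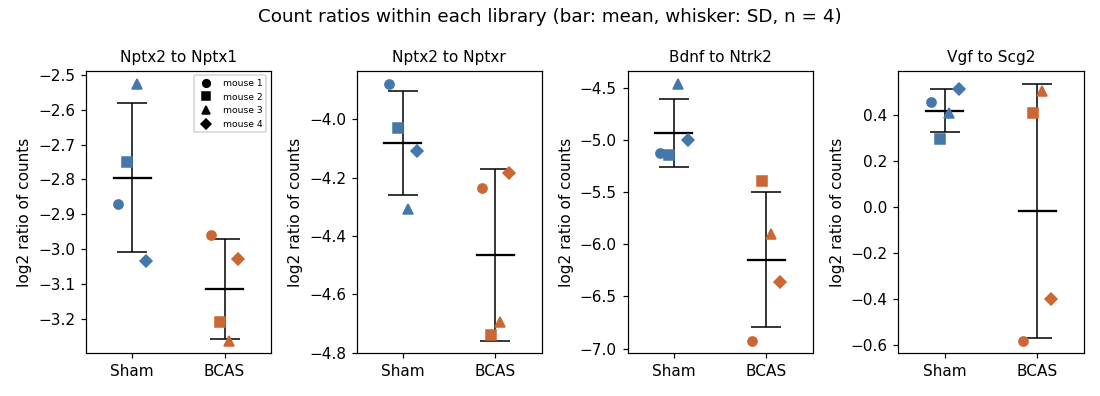
Count ratios of 4 pairs of genes within each library. The vertical axes give the log2 ratio and do not start at 0; points are mice, bars are means and whiskers are SDs (n = 4), with sham in blue and BCAS in orange. Of the 4 pairs, only for Bdnf to Ntrk2 do all BCAS mice lie below all sham mice, and for Vgf to Scg2 the BCAS mice lie in separate pairs.

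Inhba had the lowest level of the 9. Inhba (ENSMUSG00000041324.14, chr13:16011851-16031621, plus strand) had 16.8, 14.4, 8.52 and 14.3 CPM in the sham mice and 13.7, 8.04, 5.67 and 8.45 CPM in the BCAS mice. The groups overlapped, with BCAS mouse 1 among the sham mice and sham mouse 3 among the BCAS mice. The log2 fold change was -0.59 (SE 0.29) and did not pass the test (edgeR adjusted p = 0.139). It passed without BCAS mouse 1, at a log2 fold change of -0.85 (adjusted p = 0.0267).

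Between the BCAS mice, 6 of the 9 genes shared one order at its ends, with mouse 1 lowest and mouse 2 highest. The exceptions were Ntrk2, Scg2 and Inhba. In log2 CPM relative to the sham mean, BCAS mice 1 to 4 were at -1.86, -0.56, -1.11 and -1.07 for Nptx2, at -2.39, -0.63, -0.88 and -1.35 for Nrn1, and at -1.73, -0.45, -0.83 and -0.91 for Vgf. The mean over 14 pan-neuronal markers had the same ends, at -1.41, -0.27, -0.61 and -0.66, with an SD of 0.05 between the sham mice. Scg2, at -0.73, -0.43, -0.92 and -0.09, and Inhba, at 0.06, -0.71, -1.21 and -0.63, had other orders.

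**Figure D3:**
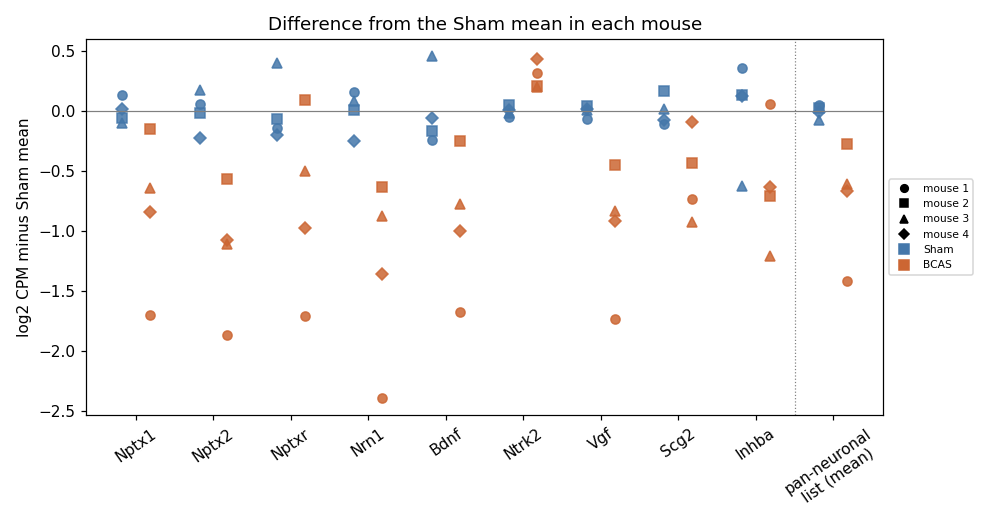
Difference of each mouse from the sham mean, in log2 CPM, for the 9 genes and, right of the dotted line, for the mean of the pan-neuronal list. Sham mice are blue, BCAS mice are orange and shapes give the mouse number, which does not pair the groups. BCAS mouse 1 (circles) is at the bottom of 6 of the 9 genes and of the neuronal list, but lies at 0.06 for Inhba and at 0.32 for Ntrk2.

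Markers of the cell types moved between the groups as well. Of the 14 pan-neuronal markers, 9 were called lower and none higher, with a median log2 fold change of -0.70. Their summed level was 10171 to 11637 CPM in sham and 3940 to 8691 CPM in BCAS mice. Of the lists for excitatory and inhibitory neurons, 5 of 9 and 3 of 7 genes were called lower. All 8 markers of microglia and macrophages were called higher, and their sum went from 239 to 288 CPM in sham mice to 882 to 3160 CPM in BCAS mice. All 3 markers of oligodendrocyte precursors and 4 of 6 of pericytes, muscle and fibroblasts were called higher, against 2 of 6 endothelial, 2 of 5 blood, 1 of 5 striatal and none of 7 oligodendrocyte markers. Choroid plexus markers summed to 774 CPM in sham mouse 3 and to 13.9 to 69.9 CPM in the other 7 libraries, and none was called. The summed level of 18 activity-regulated genes, described below, was 3827 CPM in sham mouse 3 and 2336 to 2717 CPM in the other sham mice. The part of that level in the values of the 9 genes was not tested. Sham mouse 3 was also the sham mouse with the most Bdnf, Nptxr and Nptx2 and the least Inhba and Nptx1. Without it, the log2 fold changes were -0.69 for Bdnf, -0.50 for Nptxr, -1.03 for Nptx2, -0.76 for Inhba and -0.77 for Nptx1, and of these 5 only Nptx2 was called (edgeR adjusted p = 0.0303). Striatal markers summed to 390 CPM in BCAS mouse 4 and to 139 to 239 CPM in the other 7 libraries. No defining marker was at 0 in every library. The part of these cell types in the values of the 9 genes was not tested beyond the scaling to neuronal markers that follows.

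The 9 genes were then set against the neuronal markers themselves, by scaling each library to the mean of the 14 pan-neuronal genes. This asks which genes differed between the groups by more than those markers did on average, and the markers themselves ranged from -0.39 (Snap25, edgeR adjusted p = 0.0166) to 0.42 (Gap43). On this scale the median log2 fold change of the 9 genes was -0.09, with 6 negative values, while the median over all tested genes was 0.79 and 6.46% were negative. Of the 9 genes, only Nrn1 was called lower, with a relative log2 fold change of -0.55 (SE 0.20, edgeR adjusted p = 0.0356), and 0.309% of all tested genes were called lower by this rule. The marker Snap25 was among those genes, while the other pan-neuronal markers were not. Cadps2, Npas4 and the excitatory marker Tbr1 were called lower too, so Nrn1 was not the only neuronal gene called. Ntrk2 was the only one called higher, with a relative log2 fold change of 1.10 (SE 0.23, edgeR adjusted p = 0.00766), as were 58.5% of all tested genes. The relative values of Nptx2 and Vgf were -0.42 and -0.24, with edgeR adjusted p-values of 0.0647 and 0.0991, and each of their 4 BCAS mice was below the neuronal mean, by 0.29 to 0.50 for Nptx2 and by 0.17 to 0.32 for Vgf. Bdnf (-0.21), Nptx1 (-0.09) and Nptxr (-0.03) were closer to the neuronal mean, and Scg2 (0.25) and Inhba (0.34) were above it, although Inhba was at -0.35 without BCAS mouse 1. Without sham mouse 3, Bdnf was at -0.004 and Nptxr at 0.16. Scg2 ranged from 0.08 without BCAS mouse 1 to 0.40 without BCAS mouse 3. None of these passed with all mice. Without BCAS mouse 1, Nptx2 and Vgf were called lower too (edgeR adjusted p = 0.0241 and 0.0382). The call of Nrn1 was lost when the lists of excitatory and inhibitory neurons set the scale (adjusted p = 0.0736), without the filter on low counts (0.0593), and without any one of the sham mice or BCAS mouse 4 (0.0575 to 0.0947). That of Ntrk2 held in each of these fits.

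**Figure D4:**
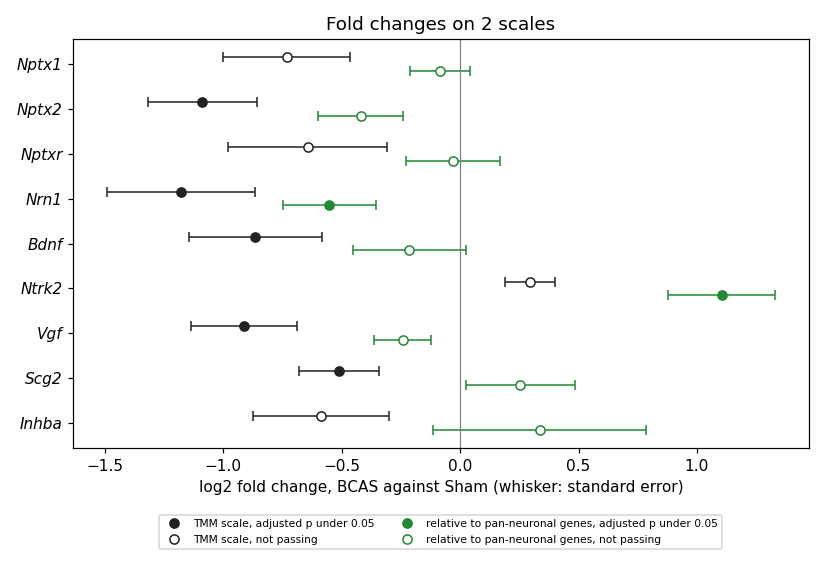
Log2 fold change of BCAS against sham for the 9 genes on 2 scales, with whiskers for the standard error. Black points use TMM scaling and green points are relative to the 14 pan-neuronal genes, and filled points have an edgeR adjusted p under 0.05. The second scale moves all genes upwards, with the median of all tested genes going from -0.01 to 0.79 and their lower calls from 2199 to 53, so the rightward shift of the 9 genes and the loss of filled points come with the scale itself.

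The partners of these genes were described through 5 lists with 84 genes in all, of which 80 were tested. In edgeR, 27 of them were called lower and 5 higher, with a median log2 fold change of -0.40, where 12.8% of all tested genes were lower and 19.2% higher. Of the 14 pan-neuronal markers, 9 were called lower, with a median of -0.70. Relative to those markers, only Cadps2 and Npas4 of the 5 lists were called lower (edgeR adjusted p = 0.0465 and 0.0339). Many were called higher on that scale, as were 58.5% of all tested genes. The count of 27 became 4, 5, 13 and 5 without sham mouse 1, 2, 3 or 4 and 28, 36, 6 and 6 without BCAS mouse 1, 2, 3 or 4. The 5 called higher were Furin, Plat, Tgfbr3, Adam17 and Ptx3. In each list, the genes named are at most 4 of those called, with the smallest p, and the gene with the highest mean CPM.

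Around Bdnf and Ntrk2, 6 of 17 tested genes of the neurotrophin pathway were called lower and 2 higher, and the median log2 fold change was -0.09. Furin, a protease that cleaves pro-BDNF inside the cell, rose from 37.9 to 61.8 CPM (log2 fold change 0.71, edgeR adjusted p = 0.00883). Plat, the tissue plasminogen activator that leads to its cleavage outside the cell, rose from 34.7 to 62.6 CPM (0.85, edgeR adjusted p = 0.0181). Shc3, an adaptor of the Trk receptors, had a log2 fold change of -0.57 (edgeR adjusted p = 0.0107). Sort1, the sorting receptor sortilin and the most abundant of the list, had a log2 fold change of -0.44 (edgeR adjusted p = 0.0472).

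Of the genes for dense-core vesicles and prohormone processing, which serve Vgf, Scg2 and Bdnf, 7 of 16 were called lower and none higher, with a median of -0.65. Cadps2 and Cadps, which prime these vesicles for release, had log2 fold changes of -1.08 and -0.65 (edgeR adjusted p = 0.0215 and 0.0231). Scg5, the chaperone of prohormone convertase, and Chga, another granin, had -0.88 and -0.67 (edgeR adjusted p = 0.0217 and 0.0279). Cpe, the carboxypeptidase that trims the peptides and the most abundant gene of the list, had a mean of 2481 CPM in sham and of 2804 CPM in BCAS cortex, and its log2 fold change of 0.18 did not pass (edgeR adjusted p = 0.344).

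In the activin pathway of Inhba, 2 of 15 tested genes were called lower and 1 higher, a share of lower calls close to that of all tested genes, and the median was 0.14. Acvr1c and Acvr1b, both type I receptors of the activin family, had log2 fold changes of -0.96 and -0.55 (edgeR adjusted p = 0.00911 and 0.0259). Acvr1b was also the most abundant of the list. Tgfbr3, a co-receptor that binds inhibin, rose from 16.5 to 30.2 CPM (0.87, edgeR adjusted p = 0.00398).

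Among partners of the pentraxins at the synapse, 7 of 14 tested genes were called lower and 2 higher, with a median of -0.47. The AMPA receptor subunits Gria3 and Gria2, the latter being the most abundant of the list, had log2 fold changes of -0.72 and -0.55 (edgeR adjusted p = 0.0190 and 0.0408). Cacng2, which encodes the auxiliary subunit stargazin, had -0.93 (edgeR adjusted p = 0.0207). Adam17, the protease that sheds the extracellular part of Nptxr, rose from 17.8 to 66.3 CPM (1.90, edgeR adjusted p = 0.00344). Ptx3, a related pentraxin that serves innate immunity, rose from 0.381 to 5.32 CPM (3.78, edgeR adjusted p = 0.00850). Microglia and fibroblasts make Adam17 and Ptx3 as well, and the part of the marker levels given above in these values was not tested.

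Of 18 activity-regulated transcription factors and effectors, 5 were called lower and none higher, and the median was -0.70. Homer1, a postsynaptic scaffold, and Egr3, a zinc-finger factor, had log2 fold changes of -0.85 and -1.04 (edgeR adjusted p = 0.0105 and 0.0172). Npas4, a factor induced by calcium entry, had 23.3, 41.4, 47.5 and 50.2 CPM in the sham mice and 4.40, 27.1, 11.1 and 11.7 CPM in the BCAS mice, with BCAS mouse 2 above sham mouse 1. Its log2 fold change was -1.58 (edgeR adjusted p = 0.0336). Crtc1, the coactivator of CREB, had -0.49 (edgeR adjusted p = 0.0351), and Mef2c, the most abundant of the list, had -0.71 (edgeR adjusted p = 0.0486).

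**Figure D5:**
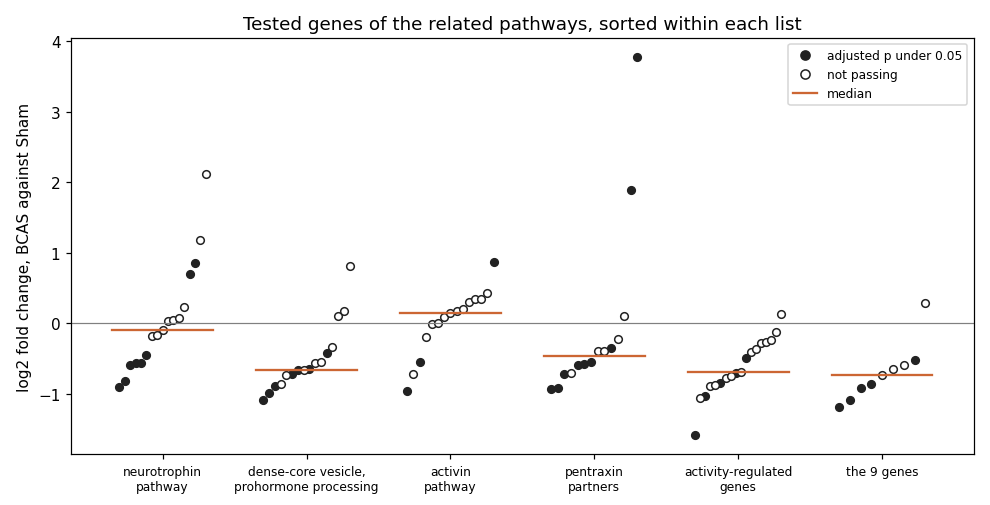
Log2 fold change of BCAS against sham for the tested genes of 5 related lists and for the 9 genes, sorted within each column. Filled points have an edgeR adjusted p under 0.05 and orange lines are medians. The medians are -0.65 for dense-core vesicle genes, -0.70 for activity-regulated genes and -0.73 for the 9 genes, against -0.09 for the neurotrophin and 0.14 for the activin pathway; the uppermost filled point is Ptx3.

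Finally, the genes whose levels varied most like each of the 9 were looked up among 12438 other genes that averaged 100 counts or more. The measure was Pearson's r of log2 CPM over the 8 libraries, which holds the difference between the groups and is given as a description only. The gene most like Nptx2 was Egr3 (r = 0.996), followed by Arhgap20 and Sorcs3. The gene most like Vgf was Elovl4 and most like Nptx1 was Map2k4 (r = 0.998 for both), while Ak5 was most like Nptxr (r = 0.997), Camk4 most like Nrn1 (r = 0.995) and Appl1 most like Bdnf (r = 0.994). For Ntrk2, the nearest were Crispld2 (r = 0.986), Fmod and Mmd2. Scg2 and Inhba had the loosest matches, with Cpne5 (r = 0.980) and Zfp335 (r = 0.973) in the lead, and for Inhba the third gene, Luzp2, was already down to r = 0.917.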

How the data were processed

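Paired reads were trimmed (Trim Galore) and aligned to mm10 (HISAT2) by the authors, who deposited unnormalized gene counts from featureCounts for 8 libraries, 4 per group. The record kept in the tables names featureCounts 2.0.1, GENCODE vM20 and no strand option, whereas the methods name version 1.6.3 and RefSeq genes. Groups and mouse numbers come from the sample labels, and coordinates from the tables. Symbols were matched for 54723 of 54752 genes.

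Counts were analysed with edgeR 4.0.16 in R 4.3.3, with TMM scaling (factors 0.949 to 1.05), filterByExpr (minimum count 10, minimum total 15), the quasi-likelihood F-test and Benjamini-Hochberg adjustment over the 17136 genes kept. The relative scale used effective library sizes proportional to the geometric mean count of the pan-neuronal list. CPM are TMM-scaled. The log2 CPM used a prior count of 2 for the correlations and no prior count for the differences from the sham mean. Ratios were compared by exact two-sided permutation over 70 arrangements. The p-values set the difference between the groups against the spread between mice. The limit of 3 counts given above covers counting error only. The fits were tested on simulated data. Alternatives were DESeq2 1.42.0, limma 3.58.1 (voom, and log2(CPM + 1)), other scalings and filters, a replicate block and leaving out each mouse. The genes, the lists and the rule for named genes (all 9 genes; per list, up to 4 called genes with the smallest p and the most abundant gene; 3 most similar genes per member; genes sharing exon bases) were chosen with earlier results of these data known. A gene that the rule names is not reported here. Motifs were searched on both strands of the 250 bases before each RefSeq start.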

Additional observations from a re-analysis of the deposited data

How the results depend on the processing

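No gene among the 9 changed sign in the 16 other fits on the main scale. The count of 5 genes called lower became 3 with library size alone (Bdnf and Scg2 were lost), and the count of 0 called higher became 1 (Ntrk2) with library size alone, with at least 10 counts in every library and with DESeq2. Relative to the pan-neuronal genes, the 1 gene called lower (Nrn1) became 0 without the filter, with the excitatory and inhibitory lists as scale and with the replicate block. Pathway genes called higher went from 5 to 8 with library size alone. Leaving out sham mouse 1, 2, 3 or 4 left 2, 1, 2 and 3 genes called lower, and leaving out BCAS mouse 1, 2, 3 or 4 left 5, 7, 3 and 3, a range of 1 to 7. In the same fits, genes called higher ranged from 0 to 1 (Ntrk2 passed without BCAS mouse 1 or 2), those lower past a log2 fold change of -1 from 0 (without BCAS mouse 1) to 4 (without BCAS mouse 2), pathway genes called lower from 4 to 36 and higher from 4 to 7, and genes lower relative to the pan-neuronal genes from 0 to 3 (Nptx2, Nrn1 and Vgf, without BCAS mouse 1). All tested genes called lower ranged from 418 to 3675 there, against 2199 in the fit of all mice. The log2 ratios ranged from -0.40 to -0.23 (Nptx2 to Nptx1), -0.48 to -0.29 (Nptx2 to Nptxr), -1.47 to -0.96 (Bdnf to Ntrk2) and -0.61 to -0.25 (Vgf to Scg2). Mouse numbers did not pair the groups (correlations of same-numbered mice -0.103 to 0.00126). With the replicate block 5 genes were called lower, where Scg2 was lost (edgeR adjusted p = 0.0565) and Inhba was gained (edgeR adjusted p = 0.0382), and all tested genes called lower were 1127. With library size alone that number was 1294, the median of all genes was 0.08, and 24.5% of all calls were lower, against 40.1% with TMM. The cause of these shifts was not tested.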
